A study of Nothobranchius furzeri with 15 samples.

Results

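Of 1810 circular RNAs (circRNAs) counted in the study, 3 are described here. They are all the circRNAs of 2 of its 1262 host genes, rilpl1 and myo5aa. The hosts were picked because earlier results of these data showed a high circular share in muscle and almost none in brain. The difference between tissues chose them and is therefore given below as a description with no test. The ages were not used in that choice, and they are tested. The data came from Nothobranchius furzeri, the African turquoise killifish, a short-lived fish used to study vertebrate ageing. All fish were of strain GRZ-AD, and no treatment or genetic change is labelled. Total RNA depleted of ribosomal RNA was sequenced from brain at 3.5, 8.5 and 14 weeks, with 3 libraries per age, and from muscle at the same ages, with 2 libraries per age. Nothing in the labels says whether each library came from its own fish. The p-values therefore reflect only how far these libraries vary, which may be technical.

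A circRNA is a closed loop, made when the splicing machinery joins the end of an exon back to the start of the same or an upstream exon. Host genes also give the ordinary linear RNA, and the balance between both products differs between tissues. Lacking free ends, circRNAs are slow to be degraded, and in several animals they gather in the ageing nervous system. The gene rilpl1 encodes RILP-like protein 1. In mammals this protein binds Rab GTPases, switches of membrane traffic, after the kinase LRRK2 has phosphorylated them, and it acts at the centrosome and the primary cilium. The gene myo5aa encodes a myosin of class V, a motor that walks along actin filaments. Its mammalian counterpart MYO5A carries melanosomes in pigment cells and membranes in the dendritic spines of neurons.

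The long circle of rilpl1 lay on chromosome 8 from 6268030 to 6269829, on the minus strand, and spanned 1800 bp. The short circle of rilpl1 ran from 6269062 to 6269829 on the same strand and spanned 768 bp. Both circles thus shared the end at 6269829, and their other ends lay 1032 bp apart. The circle of myo5aa lay on chromosome 11 from 1070208 to 1075896, on the plus strand, and spanned 5689 bp, close to the median of 5096.5 bp over all 1810 circRNAs. These are genomic spans, which include any introns between the ends. In the authors' annotation both ends of each of the 3 circles lay in an exon. Coordinates are those of the deposited table, whose genome build is not given in the sources used here. The RefSeq annotation used for gene names places both hosts on other chromosomes, so only names were taken from it.

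For each circle the authors counted circular reads, which cross the back-splice junction, and linear reads at the same position. The circular share is circular reads as a percentage of circular plus linear reads. How the linear reads were counted is not given in the sources used here, so a share need not equal the proportion of molecules. Over all listed positions, a library had between 1343 and 4400 circular reads and between 76515 and 135698 linear ones. Levels are given in CPM, counts scaled to a common library total of linear reads over the listed positions. Of the genes listed as marks of skeletal muscle, 9 of 15 were present as hosts. Their linear reads made up 270693 to 310318 CPM in muscle and 1928 to 23211 CPM in brain. Hosts that mark neurons, 12 of 14 being present, made up 48115 to 64234 CPM in brain and 125 to 575 CPM in muscle. The tissue labels thus held. Brain libraries 2 and 3 of 3.5 weeks stood apart with 23211 and 16668 CPM of muscle marker hosts, against at most 3883 CPM in the other brain libraries. For the 3 circles, the brain shares, linear levels, circle composition and age tests below are given with and without these libraries. Values and list tests of other named circRNAs include them.

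The circle of myo5aa was read in every muscle library and in no brain library. In muscle it had 4 and 6 circular reads at 3.5 weeks, 16 and 19 at 8.5 weeks and 11 and 6 at 14 weeks. Linear reads at the same position in those libraries were 12 and 12, then 10 and 3, then 13 and 7. Over the muscle libraries together, circular reads were therefore about as many as linear ones, with a range of shares from 25.0% to 86.4%. The libraries of 8.5 weeks had 61.5% and 86.4%, and no library of another age exceeded 46.2%. In brain the circular count was 0 in all 9 libraries, although the linear RNA was well covered. Linear reads in brain were 95, 68 and 95 at 3.5 weeks, 71, 59 and 99 at 8.5 weeks and 92, 121 and 69 at 14 weeks. Each muscle library was above each brain library in circular reads, which follows from how the hosts were chosen. In linear reads each muscle library was below each brain library. How many other circRNAs separate the tissues in this way was not counted.

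Pooled over libraries, 62 of 119 reads of myo5aa in muscle were circular, a share of 52.1% (exact 95% binomial interval 42.8 to 61.3%). In brain, 0 of 769 reads were circular, which allows a share of up to 0.390%, taking 3 counts as the limit of a count of 0. Taking that limit for brain and 52.1% for muscle, the share was 134-fold higher in muscle. This figure leaves out the counting error in muscle. The exact 95% binomial interval for brain ended slightly higher, at 0.479%, which would give a smaller fold. By age, the brain limits were 1.16% of 258 reads at 3.5 weeks, 1.31% of 229 reads at 8.5 weeks and 1.06% of 282 reads at 14 weeks. Without the 2 brain libraries that stood apart, 0 of 606 reads were circular, which allows up to 0.495%, and 3.5 weeks was left with 1 library, in which 0 circular reads stood beside 95 linear ones. Reads are not independent molecules, so these intervals and limits cover counting error only. The linear RNA went the other way: its level was 782 ± 74.3 CPM in brain (SD, n = 9) and 94.1 ± 37.1 CPM in muscle (SD, n = 6). Linear myo5aa was thus 8.32-fold higher in brain when scaled by library totals, and 2.81-fold higher with TMM factors. Its brain level was 783 ± 82.5 CPM without the brain libraries that stood apart (SD, n = 7). In bulk tissue, fewer cells of a type and less RNA per cell cannot be told apart.

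The long circle of rilpl1 was also read in every muscle library. Its circular reads in muscle were 17 and 13 at 3.5 weeks, 56 and 44 at 8.5 weeks and 16 and 15 at 14 weeks. Linear reads in those libraries were 40 and 61, then 86 and 54, then 43 and 42. In brain it was read once, in library 3 of 3.5 weeks, and the other 8 brain libraries had 0 circular reads. Linear reads at this position in brain were 29, 27 and 21, then 20, 18 and 31, then 48, 39 and 23 at the 3 ages. Circular reads of muscle and brain libraries did not overlap, which again follows from how the hosts were chosen. The library with the single brain read had 16668 CPM of muscle marker hosts. Library 2 of 3.5 weeks, with 23211 CPM, had 0 circular reads of the long circle. The source of the single read was not tested.

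Pooled, 161 of 487 reads of the long circle were circular in muscle, a share of 33.1% (28.9 to 37.4%). In brain the share was 1 of 257 reads, or 0.389% (0.00985 to 2.15%). The share was 85.0-fold higher in muscle. The ratio of circular to linear reads, a different measure, was 126 times higher in muscle. Its counting interval of 22.0 to 5044 is wide because it rests on 1 brain read. Without the 2 brain libraries that stood apart, 0 of 208 reads were circular, which allows up to 1.44%. Unlike myo5aa, rilpl1 had more linear RNA in muscle. The linear level at this position was 528 ± 102 CPM in muscle (SD, n = 6) and 259 ± 55.9 CPM in brain (SD, n = 9), 2.04-fold higher in muscle by library totals and 5.84-fold with TMM factors. The brain level was 265 ± 54.0 CPM without the brain libraries that stood apart (SD, n = 7).

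**Figure D1:**
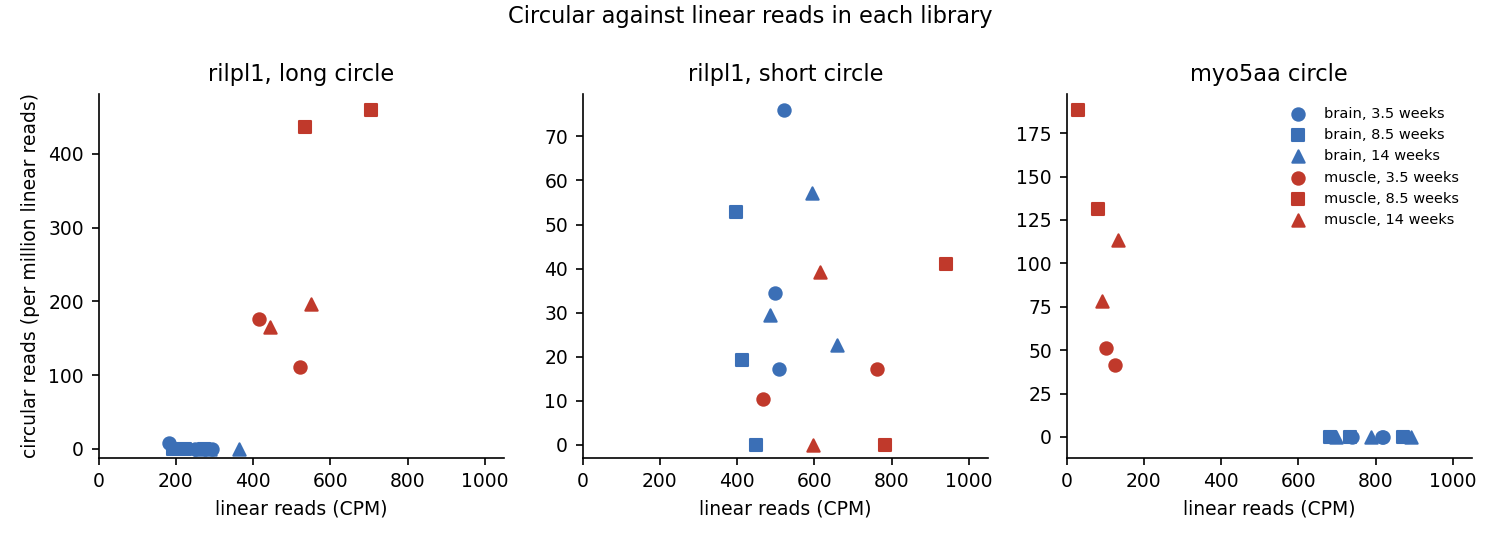
Circular reads in CPM of the library's linear total (vertical axis, a different scale in each panel) against linear reads in CPM by library totals (horizontal axis) for the 3 circles; each point is 1 library, blue for brain and red for muscle, with the shape giving the age. The myo5aa circle is read in muscle libraries with little linear RNA, the long circle of rilpl1 in muscle libraries with more linear RNA than brain, and the short circle in both tissues.

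The short circle of rilpl1 behaved differently, so the host as a whole was not linear in brain. It was read in 8 of 9 brain libraries and in 4 of 6 muscle libraries. Circular reads in brain were 4, 7 and 2 at 3.5 weeks, 2, 0 and 6 at 8.5 weeks and 3, 4 and 5 at 14 weeks. In muscle they were 1 and 2, then 5 and 0, then 0 and 3. The tissues overlapped in counts. Linear reads at the short circle were 58, 48 and 59, then 43, 36 and 45, then 87, 66 and 52 in brain. In muscle they were 45 and 89, then 115 and 79, then 58 and 47. Since both circles share an end, these linear reads and those of the long circle may partly be the same reads.

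Pooled, 33 of 527 reads of the short circle were circular in brain, a share of 6.26% (4.35 to 8.68%). In muscle the share was 11 of 444 reads, or 2.48% (1.24 to 4.39%). The ratio of circular to linear reads in muscle was 0.381 times that in brain (counting interval 0.171 to 0.783). Without the brain libraries that stood apart the brain share was 24 of 411 reads, or 5.84%. The linear level was 503 ± 83.6 CPM in brain (SD, n = 9) and 694 ± 168 CPM in muscle (SD, n = 6), 1.38-fold higher in muscle by library totals and 3.93-fold with TMM factors. With those libraries left out, the brain level was 499.6 ± 96.1 CPM (SD, n = 7).

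**Figure D2:**
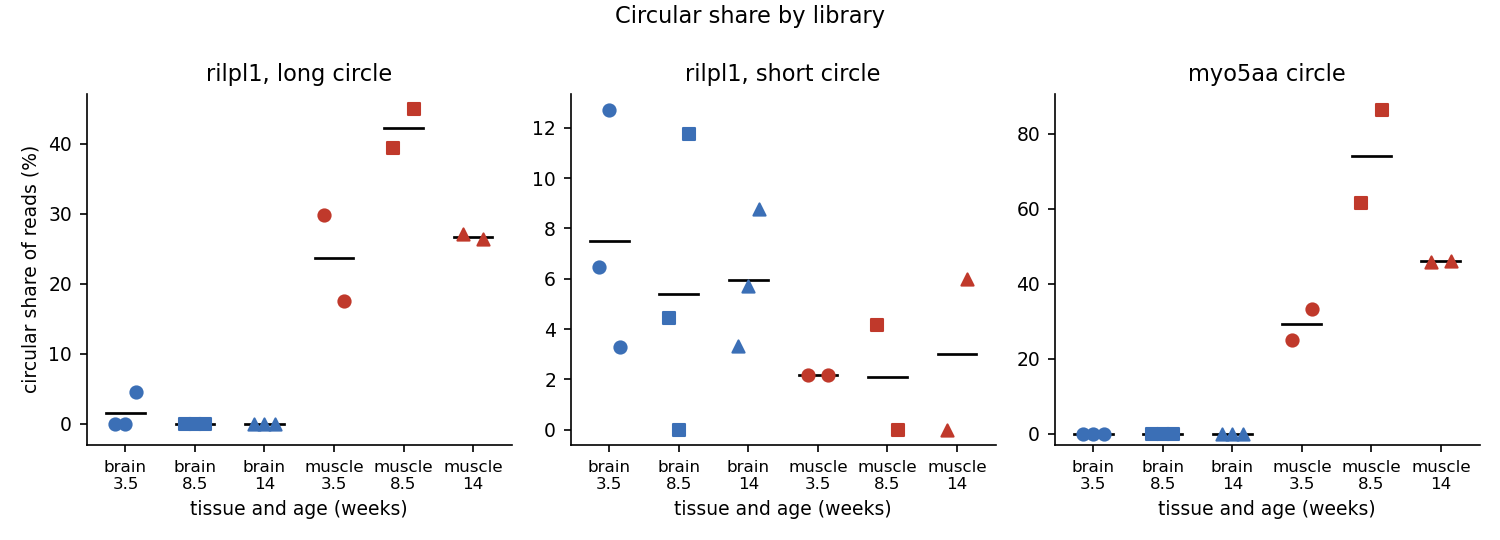
Circular share in percent of circular plus linear reads (vertical axis, a different scale in each panel) by tissue and age in weeks; each point is 1 library (3 per age in brain, 2 per age in muscle) and each bar the mean of its group. The long circle of rilpl1 and the circle of myo5aa are at or near 0 in brain, with the highest muscle shares at 8.5 weeks, while the short circle of rilpl1 is read in both tissues.

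Taking both circles of rilpl1 together showed which circle gave most circular reads in each tissue. In muscle the long circle gave 161 of 172 circular reads of the host, or 93.6% (88.8 to 96.8%). In brain it gave 1 of 34, or 2.94% (0.0744 to 15.3%). Within muscle the long circle gave 90.9% of 33 reads at 3.5 weeks, 95.2% of 105 reads at 8.5 weeks and 91.2% of 34 reads at 14 weeks. In brain it gave 1 of 14 reads at 3.5 weeks, 0 of 8 at 8.5 weeks and 0 of 12 at 14 weeks, with exact upper bounds of 33.9%, 36.9% and 26.5%. Without the brain libraries that stood apart it gave 0 of 24 reads (exact upper bound 14.2%). Within the study, 239 pairs of circles of 1 host shared exactly 1 end, and 40 of these had 10 or more circular reads in each tissue. The majority circle differed between tissues in 10 of the 40. Since rilpl1 was chosen for its difference between tissues, its place among these pairs is only a description. The rilpl1 pair had the widest difference of the 40, 90.7 percentage points against a median of 14.7. The next was a pair of LOC107385030, with 80.4 points on 19 brain reads and 11 muscle reads.

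**Figure D3:**
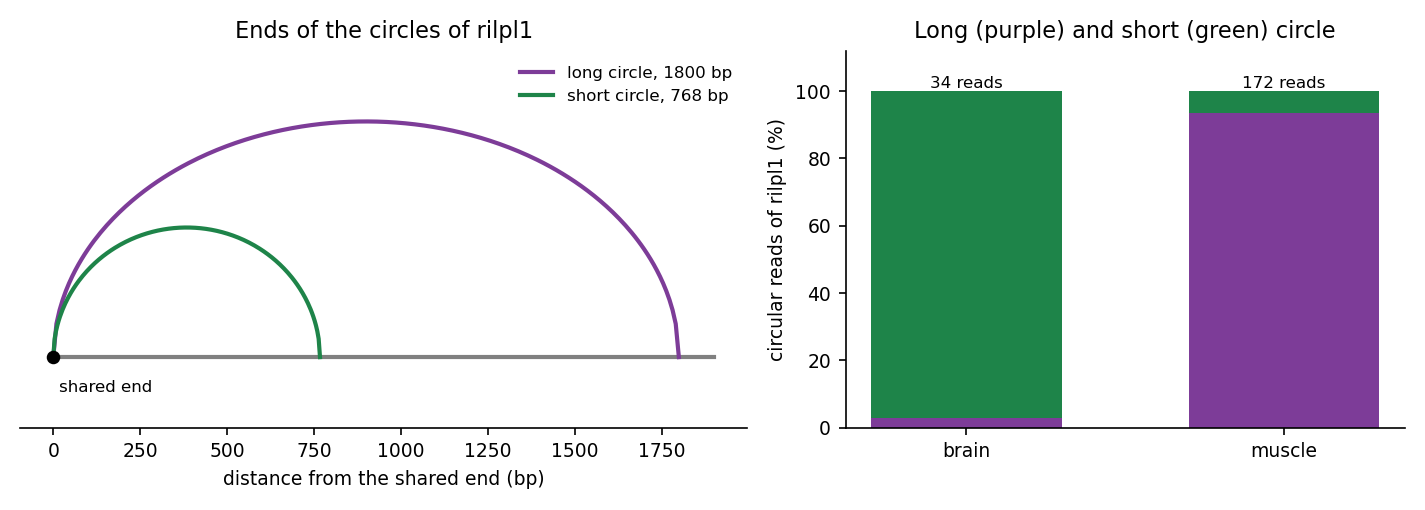
Left, the span of the long and the short circle of rilpl1 as arcs, drawn to scale by distance in bp from the end they share. Right, the percentage of the host's circular reads that came from each circle (vertical axis) in brain (34 reads) and muscle (172 reads); the long circle gives 2.94% in brain and 93.6% in muscle.

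The same pattern was looked for in 481 circRNAs with 30 or more linear reads in each tissue and 10 or more circular reads over all libraries. Of these, 46 had a muscle share of 30% or more and 62 had 0 or 1 circular reads in brain, and 4 had both. Both limits were set after the values were seen, and 30% lies just under the share of the long circle. The 4 were the circle of myo5aa, the long circle of rilpl1, LOC107373833 with 36.0% in muscle and 0 circular reads beside 326 linear reads in brain, and gab1 with 35.5% in muscle and 0.847% in brain. Here gab1, a docking protein of growth factor receptors, was named after its values were seen. By the difference in share in percentage points, myo5aa ranked 1st of the 481, the long circle 10th and the short circle 433rd. The hosts were chosen on this difference, so these counts and ranks are only a description. The 8 circRNAs of other hosts that ranked above the long circle had brain shares from 0 to 4.17%. Ordered by the fitted change of the share, the first 5 of other hosts were LOC107373833, mapk8b, snap25, mtmr3 and ank2a. The kinase gene mapk8b had 20.2% in muscle and 0 circular reads beside 581 linear reads in brain. A circle of the phosphoinositide phosphatase gene mtmr3 had 25.7% and 0 beside 443. For ank2a, an ankyrin that anchors membrane proteins to the cytoskeleton, the shares were 13.6% in muscle and 0.0917% in brain. The fit of snap25, a synaptic fusion protein, was not usable, since its circular reads numbered 0 in muscle and 13 in brain. It was not the only one. Other fitted changes were also positive beside 0 circular reads in muscle, and some had standard errors far above the change itself. The order by fitted change is therefore rough. Over all 896 circRNAs fitted, the share differed between tissues for 36 (4.02%, edgeR at an adjusted p of 0.05). This count comes from the same fits and shares their failures. Nothing about the 2 hosts is read from that figure because they were chosen on this contrast.

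**Figure D4:**
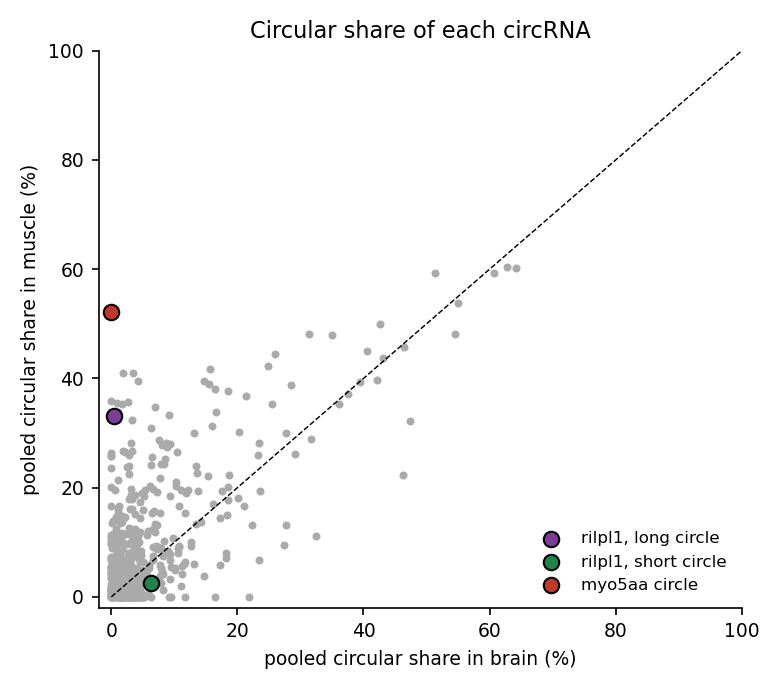
Pooled circular share in muscle (vertical axis, percent) against that in brain (horizontal axis, percent) for 481 circRNAs with 30 or more linear reads in each tissue and 10 or more circular reads over all libraries; each point is 1 circRNA, coloured for the 3 circles of rilpl1 and myo5aa, and the dashed line marks equal shares. The myo5aa circle at 52.1% and 0 and the long circle of rilpl1 at 33.1% and 0.389% lie on the left edge, and the short circle lies below the line.

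By mean CPM over the muscle libraries, where 887 of the 1810 circRNAs had a read, the long circle ranked 13th and myo5aa 38th. The short circle, with 0 to 5 reads per muscle library, ranked 250th there and 156th of 1810 in brain. By pooled circular share in muscle, among 292 circRNAs with 10 or more circular reads there, myo5aa ranked 19th, the long circle 71st and the short circle 260th, the median share being 16.0%. A high muscle share was part of the choice of the hosts, so these ranks too are only a description. Over the 15 libraries, the log2(CPM + 1) of the long circle was most like that of a circle of myot (myotilin, a protein of the muscle Z-disc), with a Pearson r of 0.986 among 895 circRNAs compared. Next were the circle of myo5aa at 0.984, scn4aa (the sodium channel of skeletal muscle) and mybpc2b (a myosin-binding protein of fast muscle) at 0.982 each, and LOC107395701 at 0.974. The circle of myo5aa was most like mybpc2b at 0.998, myot at 0.997, scn4aa at 0.992 and circles of ttn (titin) and rilpl1 at 0.984 each. These libraries share tissue, and a circle read in muscle and not in brain will resemble any other such circle. The linear reads, summed over 6 muscle and 9 brain libraries, set myo5aa apart from these muscle genes. It had 57 in muscle and 769 in brain, whereas myot had 471 and 15, scn4aa 1569 and 79, mybpc2b 14773 and 510 and ttn 23108 and 447. The 5 circRNAs of other hosts named above by the change of the share also had smaller sums of linear reads in muscle, such as LOC107373833 with 57 and 326. Those sums are not scaled for the number or make-up of the libraries. Whether these 5 stay lower in muscle with TMM factors was not tested.

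The comparison of ages asks whether the circular reads and shares change as the fish mature and age. In muscle the share of the long circle of rilpl1 and of the myo5aa circle had its highest mean at 8.5 weeks, but no age difference passed the test. For the long circle of rilpl1 the mean share was 23.7 ± 8.67% in the libraries of 3.5 weeks, 42.2 ± 3.86% in those of 8.5 weeks and 26.7 ± 0.568% in those of 14 weeks (SD, n = 2 per age). For myo5aa it was 29.2 ± 5.89%, 74.0 ± 17.6% and 46.0 ± 0.227% (SD, n = 2 each). For both, each 8.5-week library was above all 4 libraries of the other ages. How many other circRNAs did the same was not counted, and the total circular share of these libraries was also highest at 8.5 weeks. The pooled intervals were wide for myo5aa, with 10 of 34 reads circular at 3.5 weeks (15.1 to 47.5%), 35 of 48 at 8.5 weeks (58.2 to 84.7%) and 17 of 37 at 14 weeks (29.5 to 63.1%). For the long circle they were 30 of 131 reads (16.0 to 31.1%), 100 of 240 (35.4 to 48.2%) and 31 of 116 (18.9 to 35.7%). The short circle had 2.19%, 2.51% and 2.78% on 3, 5 and 3 circular reads.

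The muscle libraries as a whole moved the same way. From the youngest to the oldest age, circular reads made up 1.38 ± 0.00829%, 3.28 ± 0.138% and 2.16 ± 0.448% of the reads counted over all listed positions (SD, n = 2 per age). Set against all circular reads of its library, the long circle had 12.7 and 7.90 reads per 1000 at 3.5 weeks, 13.1 and 13.3 at 8.5 weeks and 8.74 and 7.70 at 14 weeks. The circle of myo5aa had 2.98 and 3.65, then 3.75 and 5.73, then 6.01 and 3.08 per 1000. On that scale the ages of myo5aa overlapped, and for the long circle the 8.5-week values lay just above the 12.7 of the highest other library.

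**Figure D5:**
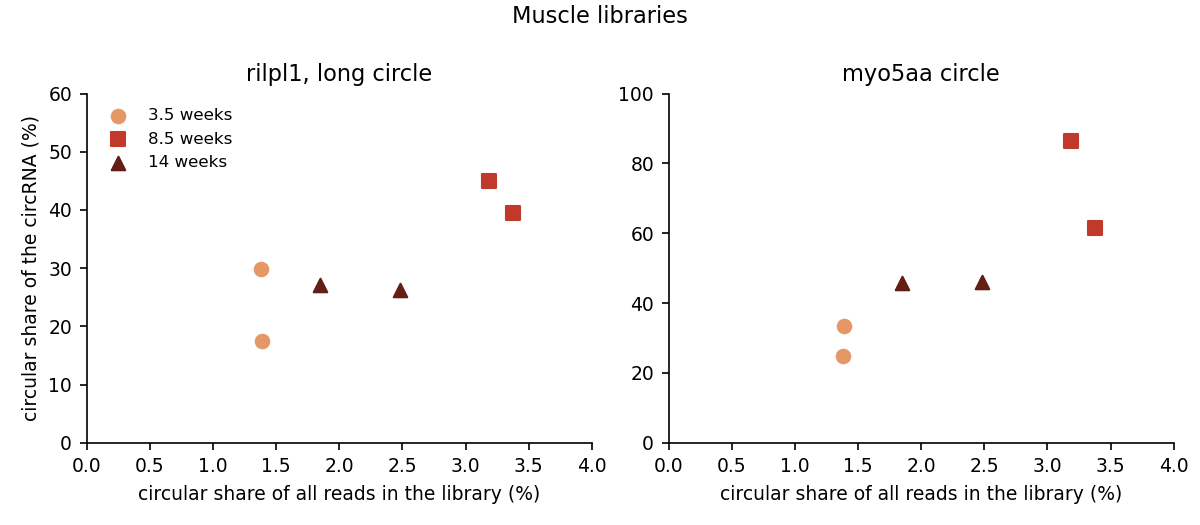
Circular share of the long circle of rilpl1 and of the myo5aa circle in each of the 6 muscle libraries (vertical axis, percent) against the circular share of reads over all listed positions in that library (horizontal axis, percent). Colour and shape give the age. The 2 libraries of 8.5 weeks are highest on both axes in both panels.

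Tested across all circRNAs with edgeR's quasi-likelihood test, neither circle passed an adjusted p of 0.05. In circular abundance from 3.5 to 8.5 weeks, 4 of 292 circRNAs passed (1.37%), all higher at 8.5 weeks, and 0 of the 3 circles were among them. The long circle went from 174 ± 66.0 to 397 ± 3.86 CPM (SD, n = 2 per age, TMM within muscle), a log2 change of 1.20 (SE 0.55, edgeR adjusted p = 0.267). The circle of myo5aa had 55.2 ± 4.79 and 142 ± 39.6 CPM, a log2 change of 1.34 (SE 0.85, edgeR adjusted p = 0.337). Both values were close to the median log2 change of all 292 circRNAs, 1.23. When libraries were scaled by TMM factors of the circular counts instead, that median was 0.80, with 0.76 for the long circle and 0.86 for myo5aa. From 8.5 to 14 weeks 0 of 292 passed (0%) with edgeR, 3 at an unadjusted p under 0.05, and 0 with DESeq2. The long circle was 1 of those 3 (edgeR unadjusted p = 0.0453). The log2 change was -1.22 for the long circle and -0.63 for myo5aa (edgeR adjusted p = 1.00 for each), against a median of -0.56. From 3.5 to 14 weeks 1 of 292 passed (0.342%). The long circle, at 171 ± 22.0 CPM at 14 weeks, was at -0.01 (SE 0.58) and myo5aa, at 90.5 ± 22.7 CPM, at 0.70 (SE 0.88), against a median of 0.74. Tested for a difference anywhere among the 3 ages, edgeR gave adjusted p of 0.516, 0.617 and 0.997 for the long circle, myo5aa and the short circle, with 1 of 292 passing (0.342%).

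The circular share, which does not depend on how libraries are scaled, likewise gave no change past the test for these circles. From 3.5 to 8.5 weeks 1 of 292 circRNAs passed (0.342%), none of them a circle of these hosts. The log2 change of the ratio of circular to linear reads was 2.78 for myo5aa (SE 1.48, edgeR adjusted p = 0.288) and 1.26 for the long circle (SE 1.21, edgeR adjusted p = 0.637), against a median of 1.06. From 8.5 to 14 weeks it was -1.75 for myo5aa and -0.99 for the long circle (edgeR adjusted p = 1.00 for each), against a median of -0.52, and 0 of 292 passed (0%) with edgeR, 7 at an unadjusted p under 0.05, and 0 with limma. From 3.5 to 14 weeks it was 1.03 for myo5aa (SE 1.47) and 0.27 for the long circle (SE 1.24), against a median of 0.48. Over any difference among the ages 0 of 292 passed (0%) with edgeR, 29 at an unadjusted p under 0.05, and 0 with limma. With 2 libraries per age, changes of this size could not be told from 0. Their standard errors, near or above 1 on the log2 scale, were derived from the same test and add nothing to it.

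The authors' deposited table of p-values for neighbouring ages lists these circles too. In the authors' deposited table for 8.5 against 3.5 weeks in muscle, which names these ages adult and young, p was 0.0115 for the long circle and 0.0127 for myo5aa, ranks 24 and 27 of 228. That authors' deposited table lists 236 circRNAs, of which 228 have a p-value and 58 had p under 0.05. Adjusted here by the Benjamini-Hochberg method both circles came to 0.103, and 7 circRNAs were under 0.05. In the authors' deposited table for 14 against 8.5 weeks in muscle, p was 0.0132 for the long circle, 0.0486 for myo5aa and 0.645 for the short circle, or 0.589, 0.626 and 0.873 after adjustment here. Of 253 circRNAs in it, 18 had p under 0.05, the long circle ranking 5th and myo5aa 18th. After adjustment here 0 of them were under 0.05. For the short circle in brain, the authors' deposited table gives p of 0.827 for 8.5 against 3.5 weeks and 0.643 for 14 against 8.5 weeks.

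In brain the short circle showed no difference between ages past the test. From the youngest to the oldest age its mean share was 7.49 ± 4.81%, 5.40 ± 5.94% and 5.94 ± 2.73% (SD, n = 3 per age). The spread within an age was larger than the differences between ages. Tested anywhere among the 3 ages, edgeR gave an adjusted p of 0.996 for abundance, where 1 of 639 circRNAs passed (0.156%). For the share it was 1.00, with 0 of 639 passing (0%) with edgeR, 47 at an unadjusted p under 0.05, and 0 with limma. Without the brain libraries that stood apart, which leaves 1 library at 3.5 weeks that is assumed to vary like the others, the edgeR adjusted p of the short circle was 0.993 for abundance and 0.998 for the share. Its share in that library was 6.45%. The total circular share of brain libraries was 2.31 ± 0.0802%, 3.06 ± 0.455% and 2.84 ± 0.345% at the 3 ages (SD, n = 3 each).

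The linear RNA of both hosts showed no change with age past the test in either tissue. In brain 44 of 1753 positions differed among the ages (2.51%), and the edgeR adjusted p was 0.990 for myo5aa, 0.737 for the long circle's position and 0.534 for the short circle's. Linear myo5aa in brain was at 792 ± 46.4, 763 ± 97.9 and 793 ± 97.4 CPM at the 3 ages (SD, n = 3 each). Without the brain libraries that stood apart, 7 positions differed among the ages, and the edgeR adjusted p was 1.00, 0.886 and 0.799 in the same order. In muscle 63 of 1253 positions differed (5.03%), and the edgeR adjusted p was 0.574, 0.904 and 0.728 in the same order. Linear myo5aa in muscle had its lowest mean at 8.5 weeks, at 114 ± 15.6, 55.8 ± 36.9 and 113 ± 29.9 CPM (SD, n = 2 each), the libraries of that age holding 10 and 3 reads. The difference between muscle and brain in the change from 3.5 to 8.5 weeks was a log2 of -1.19 for linear myo5aa (SE 0.56, edgeR adjusted p = 0.270), where 61 of 1771 positions passed (3.44%) and the median was 0.11. It was 0.16 and 0.48 for the positions of the long and the short circle (edgeR adjusted p = 0.983 and 0.520). From 3.5 to 14 weeks 50 of 1771 passed (2.82%) and the median was 0.59. The 3 positions lay below that median and did not pass, at 0.00 for myo5aa, -0.33 for the long and -0.25 for the short circle (edgeR adjusted p = 1.00, 0.667 and 0.729). Without the brain libraries that stood apart, 3 positions passed for 3.5 to 8.5 weeks, with myo5aa at -1.18 (edgeR adjusted p = 0.443), and 4 for 3.5 to 14 weeks, with myo5aa at 0.0078 (edgeR adjusted p = 1.00).

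Other genes of the same machinery were taken from 3 lists that leave out rilpl1 and myo5aa. Of the unconventional myosins, 4 circRNAs of 4 hosts were listed. In muscle 1 had enough circular reads to be tested and did not pass in abundance or share, where 0 to 1.37% of all 292 circRNAs passed. In brain 0 of 3 passed the circular tests among any ages, where 0.156% of all passed in abundance and 0% in share. Of the linear positions, 0 of 3 in muscle (5.03% of all) and 0 of 4 in brain (2.51% of all) differed among the ages. Over every contrast of ages in both products the smallest edgeR adjusted p was 0.162, in linear reads of brain from 3.5 to 8.5 weeks. The circle of myo18a was read in both tissues, with a muscle count of 65 circular reads (20.1% of its reads) and a brain count of 49 (18.6%). That of myo15aa, whose mammalian counterpart builds the stereocilia of hair cells, was read in brain, with 98 circular reads (40.8%) and 0 in muscle beside 4 linear reads.

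The list of Rab GTPases, their effectors and regulators held 24 circRNAs of 17 hosts. The circular tests covered 5 of them in muscle, of which 0 passed at any contrast, and 7 in brain, of which 0 passed among any ages, against the same shares of all circRNAs as above. The circle of lrrk2, the kinase that acts upstream of RILPL1 in mammals, was 26.6% circular in muscle, with 41 reads beside 113 linear ones, and 2.15% circular in brain, with 2 beside 91. A circle of ehbp1, which ties Rab proteins to actin, was 19.6% circular in muscle, with 28 reads, and 5.41% in brain, with 30. The circle of rabep2, a rabaptin of early endosomes, had 18 in muscle (46.2%) and 32 in brain (40.0%). Of 17 linear positions tested in muscle 1 differed among the ages (5.03% of all), and of 24 in brain 0 did (2.51% of all). The position in muscle was that of mical2, an enzyme that disassembles actin. Its linear reads in muscle were 13 and 22 at 3.5 weeks, 85 and 56 at 8.5 weeks and 36 and 39 at 14 weeks, a rise from 3.5 to 8.5 weeks of 1.52 on the log2 scale (SE 0.39, edgeR adjusted p = 0.0111), a contrast in which 66 of 1253 positions passed (5.27%).

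Cargo adaptors and microtubule motors gave 10 circRNAs of 8 hosts. In the circular tests 1 was covered in muscle and 7 in brain, and 0 passed, in brain among any ages, against the same shares of all circRNAs as above. Of their linear positions, 0 of 8 in muscle (5.03% of all) and 0 of 10 in brain (2.51% of all) differed among the ages. With so few positions, 0 is close to those shares. The smallest edgeR adjusted p over every contrast was 0.115, again in linear reads of brain from 3.5 to 8.5 weeks. Most of their circular reads came from klc1, a kinesin light chain, with 540 in brain (70.0%) and 4 in muscle (21.1%). A circle of dctn4, a dynactin subunit, had 16 in brain (1.13%) and 2 in muscle (0.858%). A circle of kif13a, a kinesin of endosomal transport, had 12 in brain (8.33%) and 10 in muscle (24.4%). In both tissues the mark of pigment cells, for which MYO5A is best known, rested on 1 of 5 listed hosts, mlphb, at 684 to 1101 CPM of linear reads in brain and 31.2 to 195 CPM in muscle; its part in the myo5aa result was not tested.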

How the data were processed

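The authors deposited raw read counts, circular and linear, for 1810 circRNAs in 15 libraries. The submitters' processing notes name STAR 2.5.2b. The caller, build and annotation were not given in the sources used here. The p-values deposited for 4 comparisons carry the name bbTest in the file headers, with no adjustment stated. Another 40 per-sample columns of those comparison tables were not used. Symbols rilpl1 and myo5aa come from RefSeq (NfurGRZ-RIMD1), matched by gene ID for 2 of 2 hosts.

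Circular counts were tested with edgeR 4.0.16 (quasi-likelihood, library sizes and TMM factors of the linear counts), shares by entering each library's circular and linear column as a pair, and linear counts likewise, for features with 10 or more reads, Benjamini-Hochberg adjusted over all features. Each tissue's ages shared 1 fit, and the tissue-by-age difference used all 15 libraries. The SE given with edgeR is the size of the log2 change divided by the square root of the F value of its test. DESeq2 1.42.0 and limma 3.58.1 (on log2 of circular + 0.5 over linear + 0.5) were alternatives. Scripts were tested on simulated data. Intervals are exact binomial at 95%. Totals per library set the precision of each share. Members and lists were chosen with earlier results of these data known. Tests of circular reads in brain, rates per 1000 circular reads, the ranking by percentage points and values and tests without 2 brain libraries were added after seeing the data. Named genes were the 5 most correlated with each main circle, the 5 of other hosts with the largest fitted tissue change of the share, and, per list, those past an age test plus the 3 with most circular reads. A gene that this rule also took is not reported here.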

Additional observations from a re-analysis of the deposited data

How the results depend on the processing

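Across the alternatives (other scalings, DESeq2 or limma, no filter or 30 reads, a replicate block, each library left out, 2 brain libraries left out), 436 test values were obtained for the 3 circles over 32 results, and 0 had an adjusted p under 0.05, the smallest being 0.0897. Pooled shares moved by less than the spread between libraries when libraries were averaged or left out: the muscle share ran from 44.3% to 56.3% for myo5aa and from 30.1% to 35.8% for the long circle of rilpl1. The change of the long circle's abundance in muscle from 3.5 to 14 weeks, -0.01 on the log2 scale, had no stable sign: 0.010 with DESeq2 size factors, 0.33 with linear totals, 0.015 with DESeq2, 0.072 with TMM of circular counts and -0.37 to 0.42 with 1 library left out. Its share change over the same interval ran from -0.22 to 0.77 with 1 library left out. The tissue difference of linear reads from 3.5 to 14 weeks became -0.29 for myo5aa with DESeq2 size factors and -0.28 with DESeq2, and ran from -0.37 to 0.26 for myo5aa and from -0.52 to 0.13 for the short circle with 1 library left out; to 8.5 weeks it ran from -0.074 to 0.35 for the long circle. The cause of these reversals was not tested.

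Counts over all circRNAs moved more. In muscle abundance the 4 calls from 3.5 to 8.5 weeks became 24 with linear totals, 22 with DESeq2, 7 with 30 reads, 14 and 22 without library 1 or 3 of 3.5 weeks, and 0 without either library of 8.5 weeks or library 2 of 14 weeks (range 0 to 22). The 1 call from 3.5 to 14 weeks became 4 with linear totals and 2 with DESeq2, TMM of circular counts or no filter (0 to 4 with 1 library left out). The 1 call among any ages became 0, 19, 2, 2 and 3 with DESeq2 size factors, linear totals, TMM of circular counts, no filter and 30 reads (0 to 16). For the share, 30 reads gave 11, 3 and 5 calls from 3.5 to 8.5 weeks, from 3.5 to 14 weeks and among any ages, limma and no filter gave 0 from 3.5 to 8.5 weeks, and leaving out 1 library gave 0 to 6 and, among any ages, 0 to 2. Brain counts among any ages were 0 for abundance under every other scaling and filter and 1 for the share with 30 reads, and with 1 library left out they were 0 to 2 for abundance and 29 to 49 for linear reads. With brain libraries 2 and 3 of 3.5 weeks left out, brain counts were 0 for abundance and 7 for linear reads, and those of the tissue difference were 4 for 3.5 to 14 weeks and 3 for 3.5 to 8.5 weeks, from fewer samples. The tissue difference of linear reads had 28 calls for 3.5 to 14 weeks with DESeq2 size factors (26 to 76 with 1 library left out) and 100 for 3.5 to 8.5 weeks with linear totals (24 to 83).

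Libraries with the same replicate number did not deviate together, with correlations of -0.14 to 0.0552 over 13 pairs within a tissue and -0.0895 to 0.00335 over 6 pairs of brain and muscle at the same age. They were treated as sharing only a number; the replicate block gave 12 calls from 3.5 to 8.5 weeks and 8 among any ages in muscle abundance, 0 for the muscle share with limma and 0 for brain abundance. Depth limits single values: linear myo5aa in muscle rests on 3 to 13 reads per library and the short circle on 0 to 7 circular reads.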
